A study of Mus musculus with 4 samples.

Results

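Transcripts of the mTORC1 pathway were followed in B16 cells, a mouse melanoma line, through 10 genes chosen by name: Ddit4, Mtor, Rptor, Tsc1, Tsc2, Deptor, Rheb, Eif4ebp1, Eif4ebp2 and Rps6kb1. Each symbol matched 1 row of the deposited count table, so 10 of 53465 rows were followed. All 10 passed the filter on low counts, as did 13664 genes in all. Of the 4 libraries, 2 came from cells exposed for 4 h to EM-plasma, where EM stands in the labels for exosome-mimetic nanovesicles with which a plasma was treated. The other 2 were control libraries. The kind of plasma, the treatment and collection time of the controls and the B16 subline are not stated. Separate cultures are not stated either, so each p-value reflects the variation between these 4 libraries. That variation was estimated largely from spread pooled across genes, and it may be technical.

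mTORC1 is a protein kinase complex on the lysosomal surface that promotes protein, lipid and nucleotide synthesis when amino acids, growth factors and energy are sufficient. Mtor encodes its kinase, and Rptor encodes Raptor, the subunit that presents substrates to it. The GTPase Rheb switches the kinase on, and the TSC complex of Tsc1 and Tsc2 products switches Rheb off. DDIT4, also called REDD1, acts through the TSC complex to restrain mTORC1 under hypoxia, energy stress and glucocorticoids, and DEPTOR binds and inhibits the kinase. Downstream, mTORC1 phosphorylates S6 kinase 1, the product of Rps6kb1, and the 4E-BP proteins, which block the cap-binding factor eIF4E until phosphorylated. Much of this control is by phosphorylation and localisation, which transcript levels do not report.

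Total counts ran from 46295133 to 46557637 in EM-plasma libraries and from 47664388 to 49367932 in control libraries. Levels are CPM, read counts divided by the TMM-scaled library size, so 1 CPM stood for between 46.5 and 49.2 reads. All 6 pigment lineage markers checked were expressed, at summed levels of 10710 and 10920 CPM in EM-plasma libraries and 10550 and 10620 CPM in control libraries. Of 8 blood and immune markers 5 were at 0 reads in every library (Ptprc, Ppbp, Pf4, Itgam and Hbb-bs), and the list summed to 0.0858 and 0.172 CPM with EM-plasma and 0.305 and 0.359 CPM in controls. The 4 fibroblast markers summed to 1.78 and 2.11 CPM with EM-plasma and 1.75 and 1.98 CPM in controls, nearly all of it Pdgfra. In bulk RNA, fewer cells of a type and less RNA per cell cannot be told apart, and CPM gives a share of all RNA, not an amount per cell.

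Of the 10 genes 2 were higher and 2 lower with EM-plasma, and 6 did not pass the test. Both directions were found among the inhibitors and among the 4E-BPs. Deptor rose 1.32-fold and Ddit4 was 1.24-fold lower, so these mTORC1 inhibitor transcripts moved in opposite directions. Eif4ebp1 rose 1.23-fold and Eif4ebp2 was 1.16-fold lower. The kinase, Raptor, both TSC subunits, Rheb and S6 kinase 1 had estimates within 0.06 of 0 on the log2 scale. A gene was called at an adjusted p below 0.05 in edgeR's two-sided quasi-likelihood test after Benjamini-Hochberg adjustment across the 13664 genes. Over all tested genes 849 were called (6.21%), 456 higher (3.34%) and 393 lower (2.88%). Among the 7969 tested genes with a mean of at least 20 CPM, a level that all 10 exceeded, 7.14% were called. Of the 10 genes, 6 had EM-plasma and control libraries that did not overlap, against 49.1% of all tested genes. An unadjusted p below 0.05 was found in 4 of the 10 genes and in 19.5% of all tested genes.

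**Figure D1:**
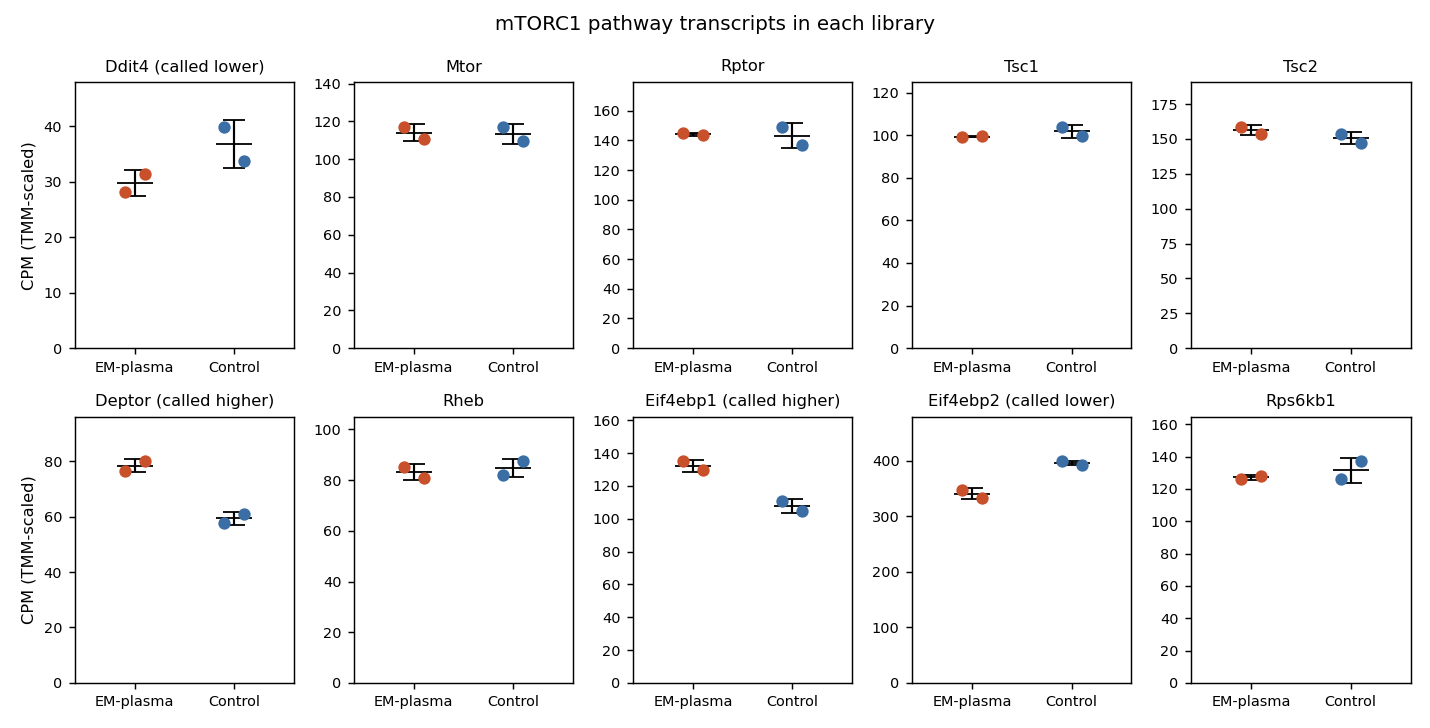
Level of each of the 10 transcripts in CPM (vertical axes start at 0 and differ between panels), with EM-plasma libraries in orange and Control libraries in blue. Points are libraries, and black bars are the mean ± SD (n = 2 per group). In Deptor and Eif4ebp1 both EM-plasma libraries lie above both Control libraries, and in Ddit4 and Eif4ebp2 below them.

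Ddit4 (ENSMUSG00000020108, GRCm38 chromosome 10, 59949669 to 59951834, minus strand) had 28.1 and 31.4 CPM in EM-plasma libraries 1 and 2, against 39.9 and 33.8 CPM in control libraries 1 and 2. The groups did not overlap, but EM-plasma 2 and control 2 lay close together and the control libraries differed more from each other than the EM-plasma libraries did. The means were 29.8 ± 2.29 CPM with EM-plasma and 36.8 ± 4.34 CPM in controls (SD, n = 2 each). The log2 fold change was -0.31 (SE 0.077, 95% interval -0.46 to -0.15, adjusted p = 0.0133). The change thus lay between 27.5% lower and 9.91% lower at that interval. Without control 1 the log2 fold change was -0.19 (adjusted p = 0.20). The call also ended without control 2 (log2 fold change -0.42) or without EM-plasma 1 (-0.23), and it held without EM-plasma 2 (-0.39). Without control 2 the change was larger than with all libraries, so the end of that call does not show a smaller change. Fits that leave out a library lean on spread pooled across genes to very different degrees. Their calls, here and below, are thus not comparable with each other.

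The start regions of Ddit4 and Eif4ebp2, the called genes that were lower, are printed because both lie on chromosome 10 and both were present in the RefSeq promoter table on GRCm38.p6. Capitals mark matches on either strand to the core letters bound by hypoxia-inducible factor, ACGTG or GCGTG.
Ddit4, chr10:59951721-59952020, minus strand: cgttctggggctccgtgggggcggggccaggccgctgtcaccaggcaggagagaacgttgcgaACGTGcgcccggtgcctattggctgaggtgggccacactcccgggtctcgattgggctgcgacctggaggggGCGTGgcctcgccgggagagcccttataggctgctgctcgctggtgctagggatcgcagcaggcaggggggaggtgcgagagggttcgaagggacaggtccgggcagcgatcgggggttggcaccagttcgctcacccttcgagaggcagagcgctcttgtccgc
Eif4ebp2, chr10:61452620-61452919, minus strand: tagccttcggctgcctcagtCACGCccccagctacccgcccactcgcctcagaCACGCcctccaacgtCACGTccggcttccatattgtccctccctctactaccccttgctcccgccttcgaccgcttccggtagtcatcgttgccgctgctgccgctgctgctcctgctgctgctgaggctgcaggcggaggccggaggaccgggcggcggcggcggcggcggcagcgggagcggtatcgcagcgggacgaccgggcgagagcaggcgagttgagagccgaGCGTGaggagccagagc
Each window holds 250 bases before and 50 after the start annotated by RefSeq, which is not the same base as the end of the gene that GENCODE gives on this strand and from which the gene positions here are taken. The Ddit4 window held 2 matches, beginning 187 and 115 bases before the RefSeq start, and the Eif4ebp2 window held 4. Such a match was present in 43.8% of 32851 promoter windows of the same length, and in 7 of the 8 pathway genes found in the table. Neither printed window matched the composite element letters of ATF4 (TGATGNAA, both strands, in 3.97% of windows), the E-box CACGTG (7.15%, each of whose matches also contains the core letters) or the cyclic AMP element TGACGTCA (1.79%). The table entry was not found for Deptor and Eif4ebp1.

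Deptor (ENSMUSG00000022419, GRCm38 chromosome 15, 55112317 to 55259271, plus strand) had 76.6 and 79.9 CPM in EM-plasma libraries, against 57.6 and 61.0 CPM in control libraries. The groups were well apart, with a gap between them wider than the range within either group. The means were 78.3 ± 2.35 and 59.3 ± 2.39 CPM (SD, n = 2 each, EM-plasma and control). The log2 fold change was 0.40 (SE 0.058, 95% interval 0.28 to 0.52, adjusted p = 3.53e-05), and Deptor ranked 72 of 13664 genes by p. Whichever library was left out, Deptor stayed higher with EM-plasma, with log2 fold changes from 0.36 to 0.44. An antisense transcript, Gm9920, shares 303 exonic bases with Deptor. It had 11 and 10 reads with EM-plasma and 5 and 7 in controls, against 3572 and 3721 and 2838 and 2893 reads of Deptor itself. The strand setting of the counting is not given in the sources used here.

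Mtor, the kinase gene, had 117 and 111 CPM in EM-plasma libraries and 117 and 109 CPM in control libraries, and the groups overlapped. Its 95% interval ran from 6.67% lower to 8.50% higher (adjusted p = 0.951). Rptor had 145 and 143 CPM with EM-plasma and 149 and 137 CPM in controls, and its interval ran from 6.45% lower to 8.07% higher (adjusted p = 0.955). The EM-plasma libraries of Rptor lay between the control libraries.

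Tsc1 had 99.2 and 99.4 CPM in EM-plasma libraries and 104 and 99.7 CPM in control libraries (adjusted p = 0.76). Tsc2 had 159 and 154 CPM with EM-plasma and 154 and 147 CPM in controls (adjusted p = 0.591). The EM-plasma libraries lay just below the controls for Tsc1 and just above them for Tsc2, and neither gene passed the test. The intervals ran from 9.50% lower to 4.94% higher for Tsc1 and from 3.10% lower to 11.2% higher for Tsc2. Tsc2 shares 693 exonic bases with Pkd1 on the opposite strand, which had a log2 fold change of 0.0089 (adjusted p = 0.955). Rheb had 85.3 and 80.9 CPM with EM-plasma and 82.2 and 87.4 CPM in controls, with overlapping groups (adjusted p = 0.836) and an interval from 9.45% lower to 6.12% higher.

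Eif4ebp1 (ENSMUSG00000031490, GRCm38 chromosome 8, 27260329 to 27276674, plus strand), which encodes 4E-BP1, had 135 and 130 CPM in EM-plasma libraries, against 111 and 105 CPM in control libraries. Both EM-plasma libraries were above both controls. The log2 fold change was 0.30 (SE 0.052, 95% interval 0.19 to 0.40, adjusted p = 0.000395). The call ended without control 2 (0.26, adjusted p = 0.0961) or without EM-plasma 1 (0.27, adjusted p = 0.0939).

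Eif4ebp2 (ENSMUSG00000020091, GRCm38 chromosome 10, 61428491 to 61452661, minus strand), which encodes 4E-BP2, had 348 and 334 CPM in EM-plasma libraries, against 399 and 393 CPM in control libraries. Both EM-plasma libraries were below both controls. The log2 fold change was -0.22 (SE 0.043, 95% interval -0.31 to -0.13, adjusted p = 0.00163). The call held without control 1 (adjusted p = 0.0422) and ended without control 2 (-0.23, adjusted p = 0.0868), EM-plasma 1 (-0.25, adjusted p = 0.0719) or EM-plasma 2 (-0.19, adjusted p = 0.282).

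**Figure D2:**
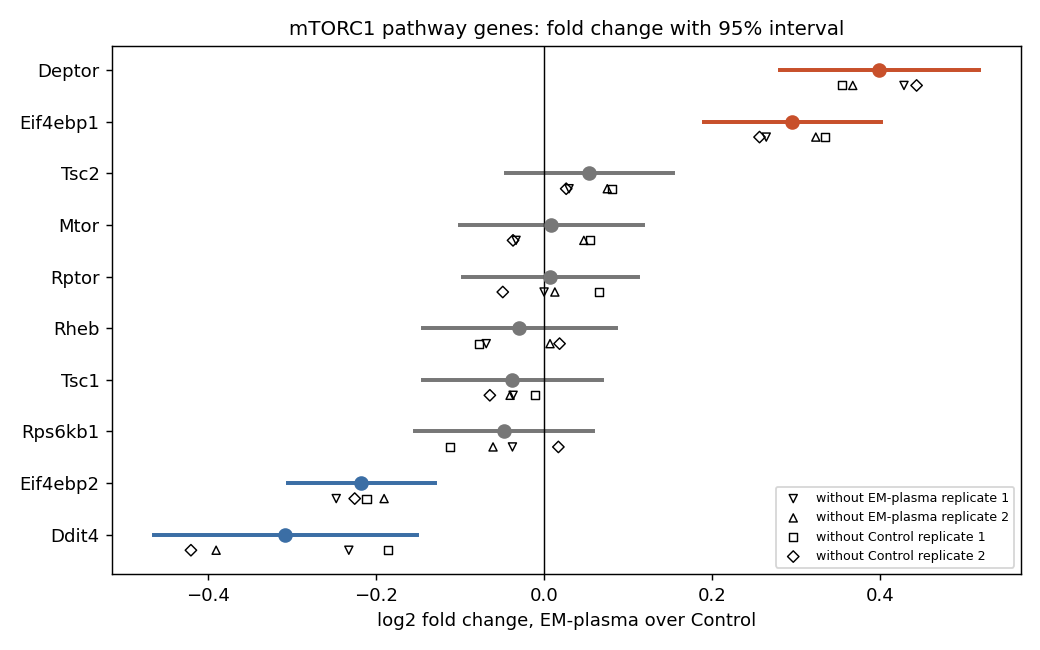
Log2 fold change of EM-plasma over Control (horizontal axis) for each of the 10 genes, with the 95% interval as a bar and open symbols for the fits that left out 1 library. Colour marks genes called higher (orange) or lower (blue). The 4 called genes keep their sign in all 4 such fits, and Ddit4 spreads from -0.42 to -0.19.

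The CPM ratio of Eif4ebp1 to Eif4ebp2 was 0.388 and 0.388 in EM-plasma libraries, against 0.278 and 0.266 in control libraries. The exact two-sided permutation test of this ratio gave p = 0.333, the smallest p that 2 libraries against 2 can give. That outcome was fixed in advance, because the groups did not overlap in either gene and the genes moved in opposite directions. The test therefore decides nothing about the ratio. Levels of different genes were compared per kilobase of the principal transcript, which is 1997 bases for Eif4ebp1 and 5784 for Eif4ebp2. On that scale Eif4ebp1 made up 52.9% and 52.9% of the 4E-BP transcripts in EM-plasma libraries, against 44.6% and 43.5% in control libraries. The summed level of both was 125.2 ± 3.61 CPM per kilobase with EM-plasma and 122.5 ± 2.97 CPM per kilobase in controls (SD, n = 2 each), a difference below the SD within either group. With merged exon length (2196 bases for Eif4ebp1) the shares were 50.6% and 50.5% with EM-plasma and 42.3% and 41.2% in controls. The sums were then 119.2 ± 3.46 and 117.6 ± 2.76 CPM per kilobase. Eif4ebp3, the other 4E-BP gene, was too low to test, at 0.172 and 0.0859 CPM with EM-plasma and 0.102 and 0.0422 CPM in controls. Eif4e, which encodes the cap-binding factor held by these proteins, had 158 and 162 CPM with EM-plasma and 166 and 179 CPM in controls (log2 fold change -0.11, adjusted p = 0.222).

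**Figure D3:**
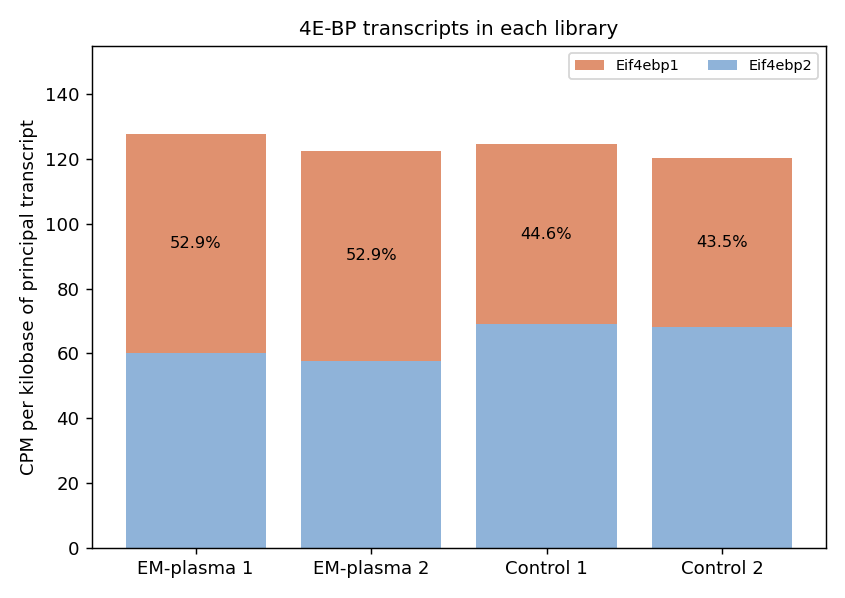
Stacked level of Eif4ebp1 (orange) on Eif4ebp2 (blue) in each library, in CPM per kilobase of principal transcript, with the share of Eif4ebp1 printed in its bar. Column heights are alike in EM-plasma and Control libraries, and the Eif4ebp1 share is 52.9% in both EM-plasma libraries against 44.6% and 43.5% in Control libraries.

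Rps6kb1, the other main output gene, had 126 and 128 CPM in EM-plasma libraries and 126 and 137 CPM in control libraries. The groups overlapped, and the interval ran from 10.1% lower to 4.13% higher (adjusted p = 0.67).

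Per kilobase of principal transcript the 10 genes spanned 9.16 (Deptor) to 66.2 (Eif4ebp1) CPM per kilobase with EM-plasma and 6.94 (Deptor) to 68.5 (Eif4ebp2) in controls. Eif4ebp1 stood first and Eif4ebp2 second with EM-plasma (66.2 ± 1.93 and 58.9 ± 1.67 CPM per kilobase, SD, n = 2), whereas in controls Eif4ebp2 stood first (68.5 ± 0.709) and Eif4ebp1 second (53.9 ± 2.25). Rheb, Tsc2, Rps6kb1, Rptor and Ddit4 followed in that order in both groups, at 46.6, 26.0, 23.0, 21.9 and 17.0 CPM per kilobase with EM-plasma and 47.5, 25.0, 23.8, 21.7 and 21.0 CPM per kilobase in controls. Mtor and Tsc1 came next and met within their ranges in both groups, with Mtor at 13.3 ± 0.529 with EM-plasma and 13.2 ± 0.639 in controls and Tsc1 at 12.9 ± 0.0202 and 13.3 ± 0.391 CPM per kilobase. In controls the ranges of Tsc2 and Rps6kb1 also met, and so did those of Rptor and Ddit4. The place of some genes depended on the length used: with merged exons Rheb stood at 10.9 CPM per kilobase over all libraries, in place 7, and Ddit4 at 19.0, in place 3. With merged exons the EM-plasma libraries of Eif4ebp1 (61.5 and 59.0 CPM per kilobase) and Eif4ebp2 (60.1 and 57.8) overlapped. First place with EM-plasma was thus not settled on that scale.

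By gene-centred log2 CPM over the 4 libraries, the genes closest to each called gene were taken from 9694 candidates, as a description of likeness with the library effects included. Closest to Ddit4 were Rhox2d, Adgra2 and Bbc3 (Euclidean distance 0.0554, 0.0646 and 0.0742). Adgra2, an adhesion receptor gene, was lower with EM-plasma (log2 fold change -0.31, adjusted p = 0.0149; -0.19 without control 1), with a call that each omission of a library ended (adjusted p from 0.081 to 0.259), and Bbc3, which encodes the BH3-only death protein PUMA, was not called (-0.26, adjusted p = 0.181). Closest to Deptor were Asns, Zfp329 and Spred3 (0.0253, 0.0408 and 0.0429). Asns, asparagine synthetase, had 215 and 221 CPM with EM-plasma and 162 and 173 CPM in controls. Closest to Eif4ebp1 were Spsb1, Kif7 and Itpkc (0.0122, 0.0171 and 0.0214), and closest to Eif4ebp2 were Anxa4, Mrpl41 and Ptms (0.0129, 0.0216 and 0.0218).

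Around these 10 genes, 88 others of the pathway were listed by role, of which 84 could be tested. Of the 84, 4 rose and 2 fell (7.14% called, median log2 fold change -0.013), beside 6.21% and -0.0027 over all tested genes. An unadjusted p below 0.05 was found in 25 of the 84 (29.8%), beside 19.5% of all tested genes. The partner subunits and assembly factors of the mTOR complexes held 0 called of 7 tested (0 at an unadjusted p below 0.05, 0 by DESeq2), with log2 fold changes from -0.083 to 0.088. Rictor, the defining subunit of mTORC2, was the most abundant of them, at 154 and 154 CPM with EM-plasma and 145 and 145 CPM in controls (log2 fold change 0.088, adjusted p = 0.325). With a GC trend removed Rictor was called (adjusted p = 0.0134). Tbc1d7, the other TSC subunit gene, had a log2 fold change of -0.028 (adjusted p = 0.878). Ddit4l, the paralog of Ddit4, had 3.30 and 3.27 CPM with EM-plasma and 3.17 and 2.26 CPM in controls (log2 fold change 0.27, adjusted p = 0.478). In the list of TSC, Rheb and Ddit4 relatives 0 of 3 were called (0 at an unadjusted p below 0.05, 0 by DESeq2).

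Rag GTPases and the Ragulator scaffold bring mTORC1 to the lysosome when amino acids are present. The list of their genes also holds Flcn, Fnip1, Fnip2 and Slc38a9, and 0 of its 13 tested genes were called (0 at an unadjusted p below 0.05, 0 by DESeq2). Of the 13, 12 had a log2 fold change below 0, as did 6952 of all 13664 tested genes. The range was from -0.13 to 0.037. Rragc, the most abundant, had 218 and 227 CPM in EM-plasma libraries and 230 and 244 CPM in control libraries (adjusted p = 0.271). Among the 17 tested GATOR, KICSTOR and sensor genes 1 was lower and 0 higher. An unadjusted p below 0.05 was found in 9 of these 17 (52.9%), in both directions, beside 19.5% of all tested genes, and DESeq2 called 0. That gene was Sesn1, a sestrin that restrains mTORC1 through GATOR2, at 19.7 and 21.6 CPM with EM-plasma and 23.6 and 26.5 CPM in controls (log2 fold change -0.28, adjusted p = 0.0329). Its call ended whichever library was left out (-0.36 to -0.19, adjusted p from 0.0607 to 0.546) and in DESeq2 (adjusted p = 0.112). Sesn2, the leucine-sensing sestrin and an ATF4 target, lay the other way at 48.6 and 49.0 CPM with EM-plasma and 44.9 and 43.2 CPM in controls (adjusted p = 0.16). It was chosen after its values were seen.

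AMPK, the energy-sensing kinase that restrains mTORC1, and its activator LKB1 held 0 called of 9 tested genes (1 at an unadjusted p below 0.05, 0 by DESeq2). Cab39, the most abundant of them, encodes an LKB1 cofactor and had a log2 fold change of -0.026 (adjusted p = 0.823). In the growth factor input 8 of 15 tested genes had an unadjusted p below 0.05 (53.3%, beside 19.5% of all tested genes), in both directions. Of the 15, 2 were called higher and 0 lower (13.3% called, beside 6.21% of all tested genes). Both were insulin receptor substrate adaptors that carry receptor signals to PI3K. Irs2 had 28.7 and 25.5 CPM with EM-plasma and 22.2 and 19.7 CPM in controls (log2 fold change 0.37, SE 0.080, adjusted p = 0.00398). Irs1 had 24.2 and 24.3 CPM with EM-plasma and 20.2 and 18.3 CPM in controls (log2 fold change 0.34, SE 0.078, adjusted p = 0.00762). Both were higher in each EM-plasma library than in either control. Leaving out 1 library, log2 fold changes ran from 0.28 to 0.45 for Irs2 and from 0.27 to 0.40 for Irs1. Each call ended in 3 of these 4 fits.

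Among 13 tested genes of cap-dependent initiation and other translation outputs, 1 rose and 1 fell (15.4% called, beside 6.21% of all tested genes). An unadjusted p below 0.05 was found in 4 of these 13 (30.8%), beside 19.5% of all tested genes. Eef2k, the kinase that inhibits elongation factor 2 and is itself inhibited downstream of mTORC1, had 99.3 and 99.6 CPM with EM-plasma and 91.8 and 82.1 CPM in controls (log2 fold change 0.19, adjusted p = 0.0381). Pdcd4, an inhibitor of the helicase eIF4A that S6 kinase marks for degradation, had 19.4 and 17.6 CPM with EM-plasma and 21.3 and 24.7 CPM in controls (log2 fold change -0.31, adjusted p = 0.0221). DESeq2 called neither (adjusted p = 0.0572 and 0.0821). Of 7 other substrates tested, 1 was called (14.3%) and 3 had an unadjusted p below 0.05 (42.9%). The called gene was Tfeb, a transcription factor of lysosomal genes that mTORC1 keeps in the cytoplasm. It had 29.2 and 29.3 CPM with EM-plasma and 26.0 and 22.0 CPM in controls (log2 fold change 0.28, adjusted p = 0.0233; DESeq2 adjusted p = 0.0736). Without control 2 the log2 fold changes were 0.12 for Eef2k, -0.20 for Pdcd4 and 0.18 for Tfeb, and none of them was called (adjusted p = 0.256, 0.324 and 0.255). Eef2k and Tfeb were called without control 1, and leaving out any other library ended both calls, whereas that of Pdcd4 ended whichever library was left out.

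**Figure D4:**
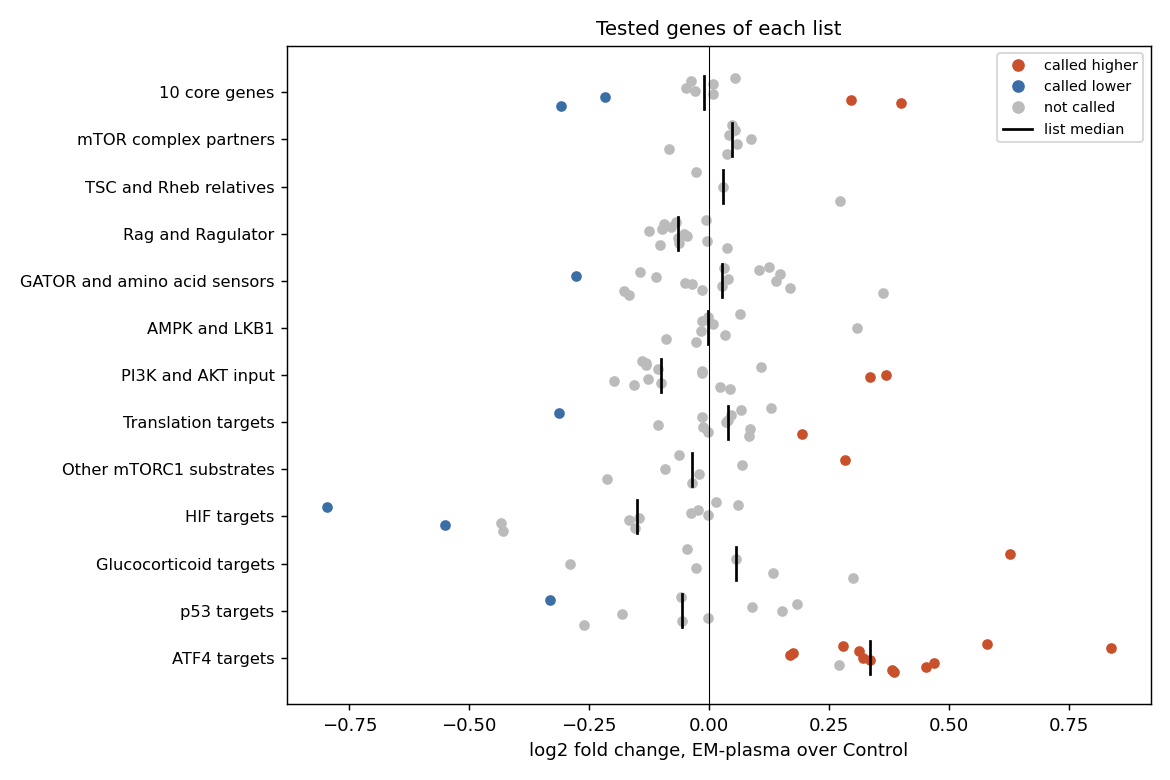
Log2 fold change of EM-plasma over Control (horizontal axis) of each tested gene, by list. Orange points were called higher, blue points lower and grey points not called, and the black line is the list median. Most pathway genes lie close to 0, whereas all 13 tested ATF4 targets lie above 0.

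Ddit4 is a known target of hypoxia-inducible factor, the glucocorticoid receptor, p53 and ATF4, and Eif4ebp1 is also an ATF4 target, so other targets of these regulators were set beside them. Of 12 tested targets of hypoxia-inducible factor 0 rose and 2 fell (16.7% called, beside 6.21% of all tested genes, median log2 fold change -0.15). Of the 12, 10 had a log2 fold change below 0, and 5 had an unadjusted p below 0.05 (41.7%, beside 19.5% of all tested genes). The targets Slc2a1, Vegfa and Ldha were not called (log2 fold change 0.060, 0.015 and -0.0014). Pdk1, which restrains pyruvate dehydrogenase, had 12.8 and 10.9 CPM with EM-plasma and 20.9 and 20.3 CPM in controls, and Bnip3, a mitophagy receptor gene, had 15.9 and 16.9 CPM with EM-plasma and 25.0 and 23.0 CPM in controls (adjusted p = 8.13e-07 and 3.93e-05). Both calls ended without control 2 (adjusted p = 0.0733 and 0.0537). Of 7 tested glucocorticoid targets 1 rose and 0 fell (14.3% called). That was Sgk1, a kinase gene of the AKT family, with 39.2 and 39.5 CPM with EM-plasma and 26.1 and 24.8 CPM in controls (log2 fold change 0.63, adjusted p = 2.61e-07), while the glucocorticoid targets Fkbp5, Tsc22d3 and Per1 were not called (adjusted p = 0.841, 0.875 and 0.739). Of 9 tested p53 targets 0 rose and 1 fell (11.1% called), Trp53inp1, a stress protein gene, with 100 and 107 CPM with EM-plasma and 126 and 135 CPM in controls (adjusted p = 0.000135). Its call ended without control 2 or without EM-plasma 1. Mdm2 lay the other way, not called (log2 fold change 0.15, adjusted p = 0.0529), and of the 9 genes 3 lay above 0 and 6 below. With RLE or upper quartile scaling or a length trend removed 2 of them were called, and 3 with the block or a GC trend removed.

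Of 13 tested ATF4 targets 12 rose and 0 fell (median log2 fold change 0.34), and 5 were called without control 2. The share called with all libraries was 92.3%, beside 6.21% of all tested genes. Slc7a11, the cystine importer subunit, Asns and Aldh1l2, a mitochondrial folate enzyme, had the smallest adjusted p (1.61e-11, 3.73e-06 and 1.13e-05). Eif4ebp1 lay on the side of this list (log2 fold change 0.30) and Ddit4 on the other side (-0.31), with no test of the list against either gene. The targets of these 4 regulators were listed with earlier results of these libraries known, and their counts are not independent evidence of a direction.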

How the data were processed

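The authors deposited a table of raw counts, whole-number reads per Ensembl gene in 1 column per library, and 1 table per library of a signal. The deposited signal equalled each gene's count times 1 constant per library, which matched edgeR's TMM-scaled CPM over all rows, and served only to check the columns. Libraries were made from poly(A) RNA with a stranded Illumina kit, per the labels' protocols. The submitters' processing notes name GRCm38 as build and, with no order, HTSeq, edgeR, CASAVA and TopHat2 2.1.1. They give neither the annotation release nor the strand setting.

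Symbols were found for 53360 of 53465 rows, and positions and lengths came from GENCODE M21 (GRCm38). Genes kept by filterByExpr were tested in edgeR 4.0.16 (R 4.3.3) with TMM scaling and the legacy quasi-likelihood fit on group alone. SE is the absolute log2 fold change over the root of F, and the 95% intervals use the total degrees of freedom. Intervals hold only counting error and variation between these libraries, the latter largely as pooled across genes. The test was checked on simulated data. The 10 genes and the lists were chosen with earlier results of these data known. From the blood and immune list 1 marker is not reported here. The genes named beyond them were, per list, up to 3 called genes by smallest adjusted p or else the most abundant tested gene, and the 3 genes nearest each called gene by gene-centred log2 CPM (prior count 2, mean of at least 5 CPM). Other genes named with values (Sesn2, Ddit4l, Eif4e, Eif4ebp3, Fkbp5, Tsc22d3, Per1, Slc2a1, Vegfa, Ldha and Mdm2) were chosen after their values were seen. Alternatives were RLE and upper quartile scaling, no filter, DESeq2 1.42.0, the newer dispersion, each library left out, a replicate block and, chosen after seeing the data, a GC trend, a length trend and merged exon length.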

Additional observations from a re-analysis of the deposited data

How the results depend on the processing

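Ddit4, Eif4ebp2, Deptor and Eif4ebp1 kept their direction in all 12 other fits. RLE and upper quartile scaling, DESeq2, the newer dispersion, the block and the GC and length trends kept all 4 calls. With no filter on low counts, where 22906 genes were tested and the median SE was 0.264, 14 genes and 0 of the 10 were called, with log2 fold changes of -0.31, -0.22, 0.40 and 0.29 (adjusted p = 0.381, 0.158, 0.109 and 0.164), and 0 of the other 84 pathway genes. All genes called numbered 557 in DESeq2, 1683 with the replicate block and 1676 with a GC trend removed, against 849. Pathway genes called numbered 2, 15 and 15 in these fits, against 6. They were 2 higher and 0 lower in DESeq2, 7 higher and 8 lower with the block, and 10 higher and 5 lower with the GC trend removed, against 4 higher and 2 lower. Of the GATOR, KICSTOR and sensor genes 5 were called with the block and 4 with the GC trend removed, against 1.

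Leaving out 1 library, between 71 and 547 genes, between 1 and 3 of the 10, and between 0 and 6 pathway genes were called. Log2 fold changes ran from -0.42 to -0.19 for Ddit4, 0.36 to 0.44 for Deptor, 0.26 to 0.34 for Eif4ebp1 and -0.25 to -0.19 for Eif4ebp2. Genes that were not called changed sign: Mtor (-0.037 to 0.056), Rptor (-0.049 to 0.066), Rheb (-0.077 to 0.019), Rps6kb1 (-0.11 to 0.018), Tbc1d7 (-0.078 to 0.018) and Cab39 (-0.070 to 0.018). With a GC trend removed Mtor, Rptor, Rheb, Rps6kb1 and Cab39 gave -0.016, -0.030, 0.0062, 0.013 and 0.0058. These fits also estimate the spread from fewer libraries, and a group with 1 library is assumed to vary like the other.

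The replicate numbers are not stated to pair the libraries, and deviations of same-numbered libraries correlated at 0.039 across genes. With the replicate block Ddit4 had an adjusted p of 9.78e-05. The median total degrees of freedom were 13700 in that fit, against 27.5 in the main fit. That p thus rests almost wholly on spread pooled across genes and is not added evidence. The p-values of the main fit share much of this limit. At the medians 25.5 of its 27.5 degrees of freedom came from spread pooled across genes. The lowest level among the 10 genes in any library was 28.1 CPM, in Ddit4. Counting error was not compared with the spread between libraries.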
